A study of Mus musculus with 11 samples.

Results

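The Smad proteins are the messengers that carry TGF-beta and BMP signals from receptors at the cell surface to genes in the nucleus. The 8 mouse genes of the family (Smad1, Smad2, Smad3, Smad4, Smad5, Smad6, Smad7 and Smad9) were taken from 19938 genes with a probe set that names a single gene. Each of the 8 has 1 such probe set, and its level was read on 11 Affymetrix arrays of mouse stomach tissue.

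Receptors for TGF-beta and activin phosphorylate Smad2 and Smad3, and receptors for BMP phosphorylate Smad1, Smad5 and Smad9. The phosphorylated proteins bind Smad4, the partner common to both branches, and enter the nucleus to regulate genes. Smad6 and Smad7 are inhibitors that act at the receptors and are themselves induced by the signal, which closes a feedback loop. In the stomach the pathway restrains epithelial growth, and inherited loss of SMAD4 causes juvenile polyposis in people.

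The labels define 3 groups. Normal gastric epithelium (NGE, 4 samples) came from mice negative for the Cre transgene, whose floxed alleles, if any, are not stated. The pChePS_GC group held 4 samples of diffuse-type gastric cancer from mice that carried the Pdx-1-Cre transgene with the alleles Cdh1F/+, Trp53F/F and Smad4F/F, where F is a floxed and + a wild-type allele. The pCP_GC group held 3 samples of the same histology from mice with the same transgene and the alleles Cdh1F/F and Trp53F/F. Both tumour groups therefore carried Pdx-1-Cre and floxed Trp53. They differed in floxed Smad4, which pChePS_GC alone carried, and in the number of floxed Cdh1 alleles. Cre driven by Pdx-1 recombines floxed alleles only in cells that have used that promoter, so stroma, vessels and immune cells of a tumour keep the alleles they had. No treatment and no ages are stated. Whether each sample is a mouse of its own is not stated, so the p-values reflect only the spread among these samples, which may be technical.

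The values are normalized log2 levels, on which a difference of 1 is a 2-fold change, and precision is limited by the number of arrays. Differences are group means from a limma fit of all 11 arrays, with a standard error (SE), a 95% interval and a two-sided p adjusted over all 19938 genes, and a gene was called at an adjusted p under 0.05. Probes differ in response, so a higher level of one gene than of another is not read as more RNA. Array medians lay between 7.63 and 7.81. Xist, the RNA of the inactive X chromosome, lay at 11.54 to 12.66 in NGE, 5.72 to 6.02 in pChePS_GC and 5.57 to 5.81 in pCP_GC. Both comparisons with NGE therefore also compare arrays with opposite levels of this gene. A difference in sex that Xist may mark cannot be told apart here from tumour against normal tissue.

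Compared with NGE, 6 of the 8 Smad genes were called in pChePS_GC (Smad3 and Smad5 higher; Smad4, Smad6, Smad7 and Smad9 lower) and 4 in pCP_GC (Smad5 higher; Smad6, Smad7 and Smad9 lower). Across all genes 42.1% were called in pChePS_GC (18.7% higher and 23.4% lower) and 51.8% in pCP_GC (20% higher and 31.8% lower), so a call by itself does not distinguish a Smad gene. Between pChePS_GC and pCP_GC 0 of the 8 were called by limma, against 0.366% of all genes (0.115% higher and 0.251% lower in pChePS_GC), and 3 (Smad1, Smad3 and Smad4) had an unadjusted p under 0.05. The arrays of the groups compared did not overlap for 6, 5 and 2 Smad genes in these comparisons, against 40.6%, 59.6% and 13.9% of all genes. By direction these were 2 higher and 4 lower in pChePS_GC (17.7% and 22.9% of all genes), 2 higher and 3 lower in pCP_GC (24% and 35.6%), and 1 higher, Smad3, and 1 lower, Smad4, in pChePS_GC against pCP_GC (9.5% and 4.4%). Both comparisons with NGE use the same 4 normal arrays and are given side by side. With the arrays centred on their medians over all probe sets, the calls over all genes split into 3933 higher and 3078 lower in pChePS_GC and 4399 higher and 4872 lower in pCP_GC, against 3728 and 4658, and 3994 and 6343, as deposited. With the arrays centred on their medians over named genes the median of all genes moved by -0.17 and -0.21, and the splits were 2695 higher and 9101 lower, and 2686 higher and 9716 lower. The Smad genes called against NGE kept their call and direction under these scalings and under quantile normalization.

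**Figure D1:**
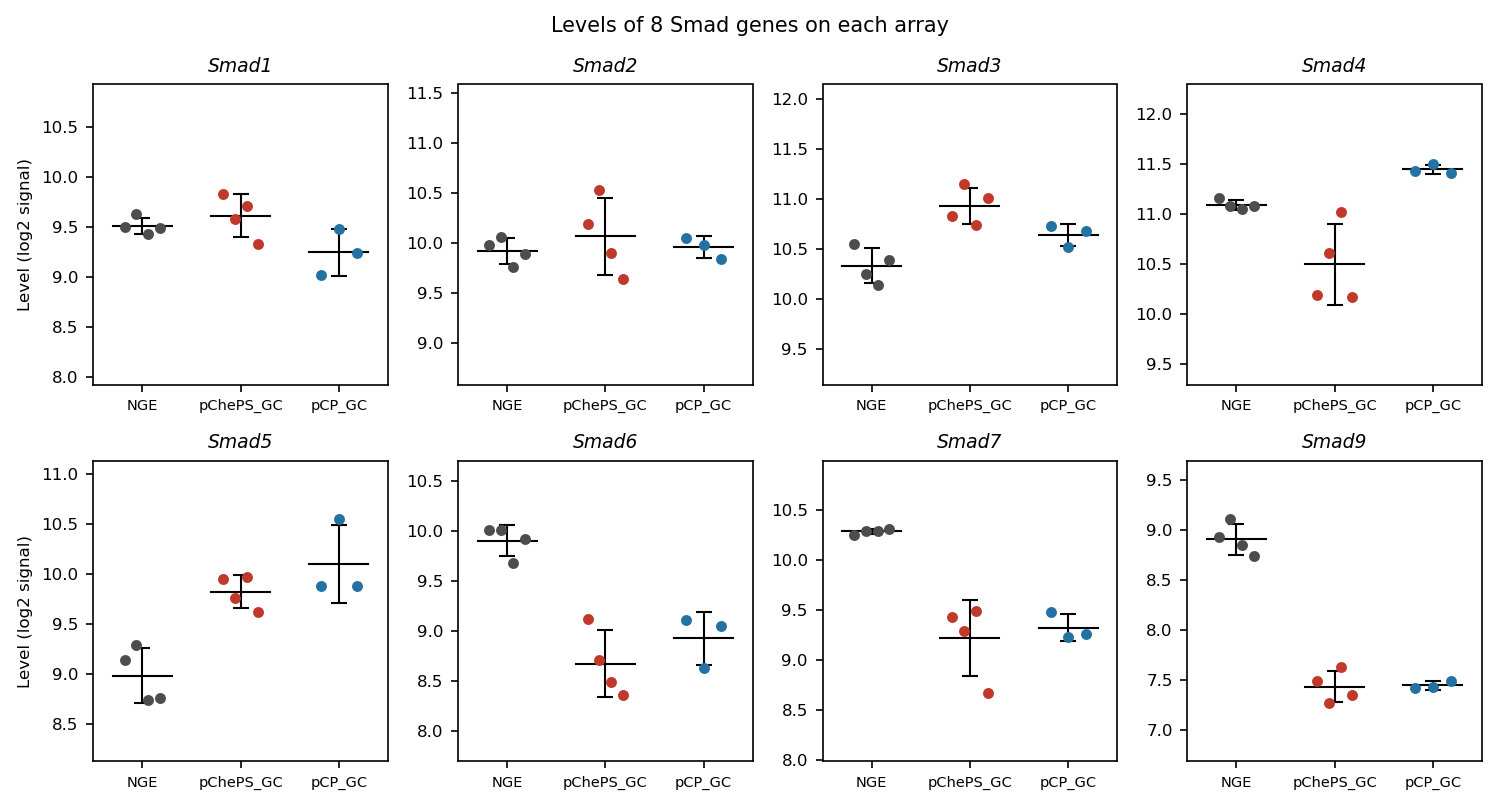
Normalized log2 level of each Smad gene on each array, in 1 panel per gene, with 1 point per array, black lines for group means and bars for SD. Smad6, Smad7 and Smad9 lie lower on every tumour array than on every NGE array, Smad5 lies higher on every tumour array, and Smad4 is lower than NGE in pChePS_GC only.

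Smad4, the common partner and the gene floxed in pChePS_GC, was examined first. It read 11.16, 11.08, 11.05 and 11.07 on the NGE arrays, 10.18, 10.61, 11.02 and 10.17 on the pChePS_GC arrays, and 11.43, 11.49 and 11.41 on the pCP_GC arrays. The 3 groups did not overlap, with pCP_GC highest and pChePS_GC lowest, but replicate 3 of pChePS_GC lay close under the lowest NGE array. Smad4 fell by 0.60 in pChePS_GC against NGE, to 66.2% of the normal level (SE 0.16, 95% interval -0.96 to -0.24, limma adjusted p = 0.0152), and 7.70% of all genes had a lower difference. In pCP_GC its difference from NGE was 0.35 (SE 0.18, 95% interval -0.04 to 0.74, adjusted p = 0.114), and 0.14 with the arrays centred over named genes (adjusted p = 0.492). The difference between the tumour groups was -0.95 (SE 0.18, 95% interval -1.34 to -0.56, adjusted p = 0.0585), a value that 1.11% of all genes lay below. Permuting the samples exactly (two-sided) gave an exact p = 0.0286 for either tumour group against NGE, the smallest p that these group sizes allow, and p = 0.0571 between the tumour groups.

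Replicate 3 of pChePS_GC bears on each of these values for Smad4. Without that array Smad4 differed from NGE by -0.77 in pChePS_GC (limma adjusted p = 0.000685) and by -1.12 from pCP_GC (adjusted p = 0.00704), and its difference of 0.35 in pCP_GC against NGE was called (adjusted p = 0.0245). The same array had the highest mean level of fibroblast markers in its group (11.87, against 10.89 to 11.31 on the others) and of endothelium markers (10.39, against 9.30 to 9.57). Its mean of smooth muscle and pericyte markers was also the highest (11.93). Its macrophage markers (10.62, against 10.42 to 11.10) and lymphocyte markers (7.18, against 6.63 to 8.09) were not. The part of any of these cells in its Smad4 level was not tested. The position of the Smad4 probe set relative to the deleted exons is unknown here, so its level does not check recombination.

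Cdh1, floxed in both tumour groups, encodes E-cadherin, which joins epithelial cells. Its levels ran from 12.94 to 13.02 in NGE, from 8.73 to 11.07 in pChePS_GC and from 10.52 to 12.02 in pCP_GC. Replicate 2 of pChePS_GC had the highest Cdh1 of its group, and replicate 3 the highest Smad4, so Cdh1 and Smad4 did not rank the arrays of that group alike.

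Smad2 and Smad3 carry the TGF-beta and activin branch. Smad2 read 9.98, 10.06, 9.76 and 9.89 on the NGE arrays, 10.19, 10.53, 9.90 and 9.64 on the pChePS_GC arrays, and 10.05, 9.98 and 9.84 on the pCP_GC arrays. All 3 groups overlapped, and pChePS_GC held both the highest and the lowest array. The difference from NGE was 0.14 in pChePS_GC (95% interval -0.22 to 0.51, limma adjusted p = 0.491) and 0.04 in pCP_GC (adjusted p = 0.874), and the sign of either turned with the arrays centred over named genes (-0.03 and -0.18). In pChePS_GC it also turned without pChePS_GC replicate 2 (-0.01), and in pCP_GC under quantile normalization (-0.12), with the replicate block (-0.04), without NGE replicate 3 (-0.02) and without pCP_GC replicate 1 (-0.01). The intervals allow a change of Smad2 in pChePS_GC in either direction.

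Smad3 read 10.56, 10.25, 10.15 and 10.39 on the NGE arrays, 10.83, 11.15, 10.74 and 11.01 on the pChePS_GC arrays, and 10.73, 10.52 and 10.68 on the pCP_GC arrays. Every pChePS_GC array lay above every other array, and pCP_GC overlapped NGE at a single array. Smad3 rose by 0.60 in pChePS_GC against NGE, to 151% of the normal level (SE 0.12, 95% interval 0.34 to 0.85, limma adjusted p = 0.00277). In pCP_GC the difference was 0.31 (SE 0.13, 95% interval 0.03 to 0.59, adjusted p = 0.0632), and without NGE replicate 1 it was 0.38 and called (adjusted p = 0.0345, while the alternatives as a whole gave 0.0167 to 0.574). With the arrays centred over named genes it was 0.09, and under quantile normalization 0.19. The tumour groups differed by 0.29 (95% interval 0.01 to 0.57, adjusted p = 0.290), so a difference in Smad3 between the genotypes was not called.

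Smad1, Smad5 and Smad9 carry the BMP branch. Smad1 read 9.50, 9.62, 9.43 and 9.49 on the NGE arrays, 9.83, 9.57, 9.71 and 9.33 on the pChePS_GC arrays, and 9.01, 9.47 and 9.24 on the pCP_GC arrays. The groups overlapped, with pCP_GC tending lowest. The difference from NGE was 0.10 in pChePS_GC (95% interval -0.18 to 0.38, limma adjusted p = 0.529), with the sign turned under quantile normalization (-0.03) and with the arrays centred over named genes (-0.07). It was -0.27 in pCP_GC (95% interval -0.57 to 0.03, adjusted p = 0.122), and this difference was called under both of those scalings (-0.45 with adjusted p = 0.0171, and -0.48 with adjusted p = 0.0114) and with array weights (-0.36 with adjusted p = 0.0082). Between the tumour groups Smad1 differed by 0.37 (95% interval 0.07 to 0.67, adjusted p = 0.232).

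Smad5 read 9.15, 9.29, 8.74 and 8.76 on the NGE arrays, 9.95, 9.76, 9.97 and 9.62 on the pChePS_GC arrays, and 9.88, 10.55 and 9.88 on the pCP_GC arrays. Every tumour array lay above every normal array, and replicate 2 of pCP_GC was the highest of all. Smad5 rose by 0.84 in pChePS_GC, to 179% of the normal level (SE 0.18, 95% interval 0.45 to 1.23, limma adjusted p = 0.00428), and by 1.12 in pCP_GC, to 217% (SE 0.19, 95% interval 0.69 to 1.54, adjusted p = 0.00116). The tumour groups differed by -0.28 (95% interval -0.70 to 0.15, adjusted p = 0.478).

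Smad9, long known as Smad8, read 8.93, 9.10, 8.85 and 8.74 on the NGE arrays, 7.49, 7.27, 7.63 and 7.35 on the pChePS_GC arrays, and 7.42, 7.43 and 7.49 on the pCP_GC arrays. The normal arrays stood more than 1 log2 unit above the tumour arrays, and both tumour groups lay at the same height. Smad9 fell by 1.47 in pChePS_GC, to 36.1% of the normal level (SE 0.10, 95% interval -1.70 to -1.24, limma adjusted p = 3.49e-06). In pCP_GC it fell by 1.46, to 36.4% (SE 0.11, 95% interval -1.70 to -1.21, adjusted p = 8.32e-06). Only 1.73% and 1.36% of all genes had a lower difference. Between the tumour groups the Smad9 difference was -0.01, with an interval of -0.26 to 0.23 (adjusted p = 0.968).

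A level of dim probe sets was set from 1194 receptor genes of smell (olfactory and vomeronasal), as their 95th percentile. Whether some of these genes are used in stomach was not tested, so the level may not be background alone. Smad9 lay 0.32 to 0.62 above it in pChePS_GC and 0.52 to 0.68 in pCP_GC, so its falls may understate a larger change if that level is background. The other 7 Smad genes lay at least 1.34 above it on every array. The dim level ran from 7.08 to 7.32 over the NGE arrays, from 6.88 to 7.025 in pChePS_GC and from 6.75 to 6.97 in pCP_GC. Below, a gene said to lie under the dim level in a group read under that group's highest dim level on every array. It may still lie above the dim level of a single array.

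**Figure D2:**
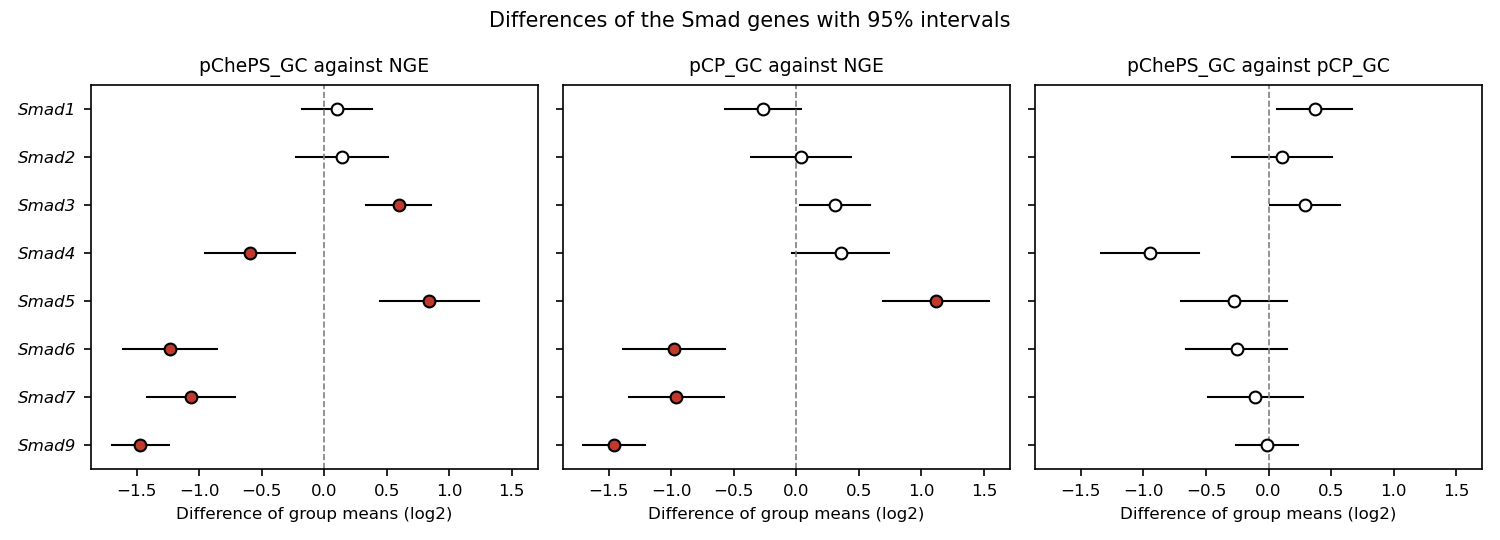
Difference of group means (log2) of each Smad gene in each of the 3 comparisons, with 95% intervals from limma; filled points have an adjusted p under 0.05. Smad5 lies right of 0 and Smad6, Smad7 and Smad9 left of 0 against NGE in both tumour groups, while no point is filled between the tumour groups.

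Smad6 and Smad7 are the inhibitors. Smad6, which acts mainly on the BMP branch, read 10.01, 10.01, 9.68 and 9.92 on the NGE arrays, 9.12, 8.71, 8.49 and 8.36 on the pChePS_GC arrays, and 9.11, 8.63 and 9.05 on the pCP_GC arrays. All tumour arrays lay below all normal arrays, and the tumour groups overlapped. Smad6 fell by 1.23 in pChePS_GC, to 42.5% of the normal level (SE 0.17, 95% interval -1.61 to -0.86, limma adjusted p = 0.000305). In pCP_GC it fell by 0.98, to 50.8% (SE 0.18, 95% interval -1.38 to -0.57, adjusted p = 0.00178). The tumour groups differed by -0.26 (95% interval -0.66 to 0.15, adjusted p = 0.492).

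Smad7, which acts on both branches, read 10.25, 10.29, 10.29 and 10.31 on the NGE arrays, 9.43, 9.28, 9.49 and 8.66 on the pChePS_GC arrays, and 9.48, 9.23 and 9.26 on the pCP_GC arrays. The normal arrays spanned less than 0.1 log2 units, and every tumour array lay below them, with replicate 4 of pChePS_GC lowest. Smad7 fell by 1.07 in pChePS_GC, to 47.7% of the normal level (SE 0.16, 95% interval -1.42 to -0.72, limma adjusted p = 0.000497). In pCP_GC it fell by 0.96, to 51.3% (SE 0.17, 95% interval -1.34 to -0.58, adjusted p = 0.00137). The tumour groups differed by -0.11 (95% interval -0.48 to 0.27, adjusted p = 0.782). In each comparison with NGE, between 2.31% and 3.20% of all genes had a lower difference than Smad6 or Smad7.

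Because Smad6 and Smad9 were lower and Smad5 higher in both tumour groups, their promoters are shown. Promoter windows from RefSeq (GRCm38.p6), which run from 250 bases before to 50 bases after an annotated start, were matched for 5 of the Smad genes (Smad1, Smad3, Smad5, Smad6 and Smad9), and Smad5 had 3 windows. They were searched on both strands for GTCT (AGAC on the other strand), the short site bound by Smad3 and Smad4, for its palindrome GTCTAGAC, and for the GC-rich elements GGCGCC and GGAGCC known from BMP-responsive genes; a palindrome match also holds 2 matches of the GTCT site. Capitals mark GTCT, AGAC, GTCTAGAC or GGCGCC, and the sequences run 5′ to 3′ along each gene's strand.
Smad6 promoter, chr9:64022010-64022309, minus strand: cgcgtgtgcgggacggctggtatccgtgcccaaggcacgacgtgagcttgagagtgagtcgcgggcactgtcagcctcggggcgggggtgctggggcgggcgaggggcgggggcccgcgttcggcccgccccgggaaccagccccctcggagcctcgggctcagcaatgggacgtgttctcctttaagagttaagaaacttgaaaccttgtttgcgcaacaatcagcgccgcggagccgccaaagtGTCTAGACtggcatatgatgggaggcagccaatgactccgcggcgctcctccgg
Smad9 promoter, chr3:54755332-54755631, plus strand: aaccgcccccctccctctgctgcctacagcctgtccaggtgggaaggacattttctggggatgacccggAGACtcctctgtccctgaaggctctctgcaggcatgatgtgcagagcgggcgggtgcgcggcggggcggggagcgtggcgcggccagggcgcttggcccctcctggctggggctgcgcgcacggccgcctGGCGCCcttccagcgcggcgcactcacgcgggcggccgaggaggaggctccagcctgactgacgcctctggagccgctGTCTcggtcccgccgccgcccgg
Smad5 promoter, the first of its windows, chr13:56702760-56703059, plus strand: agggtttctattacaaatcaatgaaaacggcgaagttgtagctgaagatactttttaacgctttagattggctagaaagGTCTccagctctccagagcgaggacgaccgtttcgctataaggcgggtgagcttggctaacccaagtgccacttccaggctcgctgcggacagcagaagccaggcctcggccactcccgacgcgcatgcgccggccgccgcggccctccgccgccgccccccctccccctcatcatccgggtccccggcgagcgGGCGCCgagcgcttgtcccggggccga

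The Smad6 window held the palindrome GTCTAGAC, whose first base lies 4 bases before the annotated start, and 2 matches of GGAGCC. Among 32851 mouse windows of 300 bases, 70 (0.213%) held that palindrome. The Smad9 window held 2 matches of the GTCT site, 1 of GGCGCC and 2 of GGAGCC, and the Smad5 window shown held 1 of the GTCT site and 1 of GGCGCC. The GTCT site was found in 88.0% of all windows, GGCGCC in 11.9% and GGAGCC in 30.8%. The Smad3 window held 1 GTCT site, and the Smad1 window held none of the motifs searched. These matches describe letters only.

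Differences between Smad genes within an array leave out any shift that moves a whole array. The 7 pairs were set up by role, and each was compared across groups by exact two-sided permutation; of the 21 tests 11 gave p = 0.0286, the smallest possible, and 0 passed after Benjamini-Hochberg adjustment, where the lowest adjusted p was 0.0545. With this smallest p no pair could pass on its own values, however large its shift, so that 0 passed does not show equal change. The groups did not overlap in 13 of the 21. The size of a single within-array value depends on the probes, and only its shift between groups is read.

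Smad4 minus Smad3 was 0.60, 0.82, 0.90 and 0.69 on the NGE arrays, -0.65, -0.54, 0.27 and -0.84 on the pChePS_GC arrays, and 0.70, 0.97 and 0.73 on the pCP_GC arrays. All pChePS_GC arrays lay below all others, replicate 3 closest to them, and NGE and pCP_GC overlapped. The shift was -1.19 against NGE (exact permutation p = 0.0286) and -1.24 against pCP_GC (exact permutation p = 0.0571). Smad4 minus Smad1 separated the 3 groups, with 1.45 to 1.67 in NGE, 0.35 to 1.31 in pChePS_GC and 2.02 to 2.42 in pCP_GC, and each of its 3 comparisons gave an exact permutation p of 0.0286. Smad4 minus Smad2 shifted by -0.74 in pChePS_GC against NGE, where the groups overlapped (exact permutation p = 0.0571), by 0.32 in pCP_GC (exact permutation p = 0.0286) and by -1.06 between the tumour groups (exact permutation p = 0.0571). Smad4 minus Smad5 shifted down in both tumour groups, by -1.44 and -0.76 (exact permutation p = 0.0286 for each), so in pCP_GC it went the opposite way to Smad4 minus Smad1, whose shift was 0.62. Between the tumour groups Smad4 minus Smad5 overlapped (-0.67, exact permutation p = 0.0857).

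Within the BMP branch, Smad1 minus Smad5 was 0.35, 0.33, 0.69 and 0.72 on the NGE arrays, -0.12, -0.19, -0.26 and -0.30 on the pChePS_GC arrays, and -0.87, -1.08 and -0.64 on the pCP_GC arrays. The order NGE, pChePS_GC, pCP_GC held with no overlap between groups. The shift was -0.74 in pChePS_GC and -1.38 in pCP_GC against NGE, and 0.64 between the tumour groups (exact permutation p = 0.0286 for each). Within the TGF-beta branch, Smad2 minus Smad3 shifted by -0.45 in pChePS_GC against NGE (exact permutation p = 0.0286) and by -0.27 in pCP_GC (exact permutation p = 0.114). Smad6 minus Smad7, the balance of the inhibitors, shifted by -0.17 in pChePS_GC (exact permutation p = 0.486) and by -0.02 in pCP_GC (exact permutation p = 1), and all groups overlapped.

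**Figure D3:**
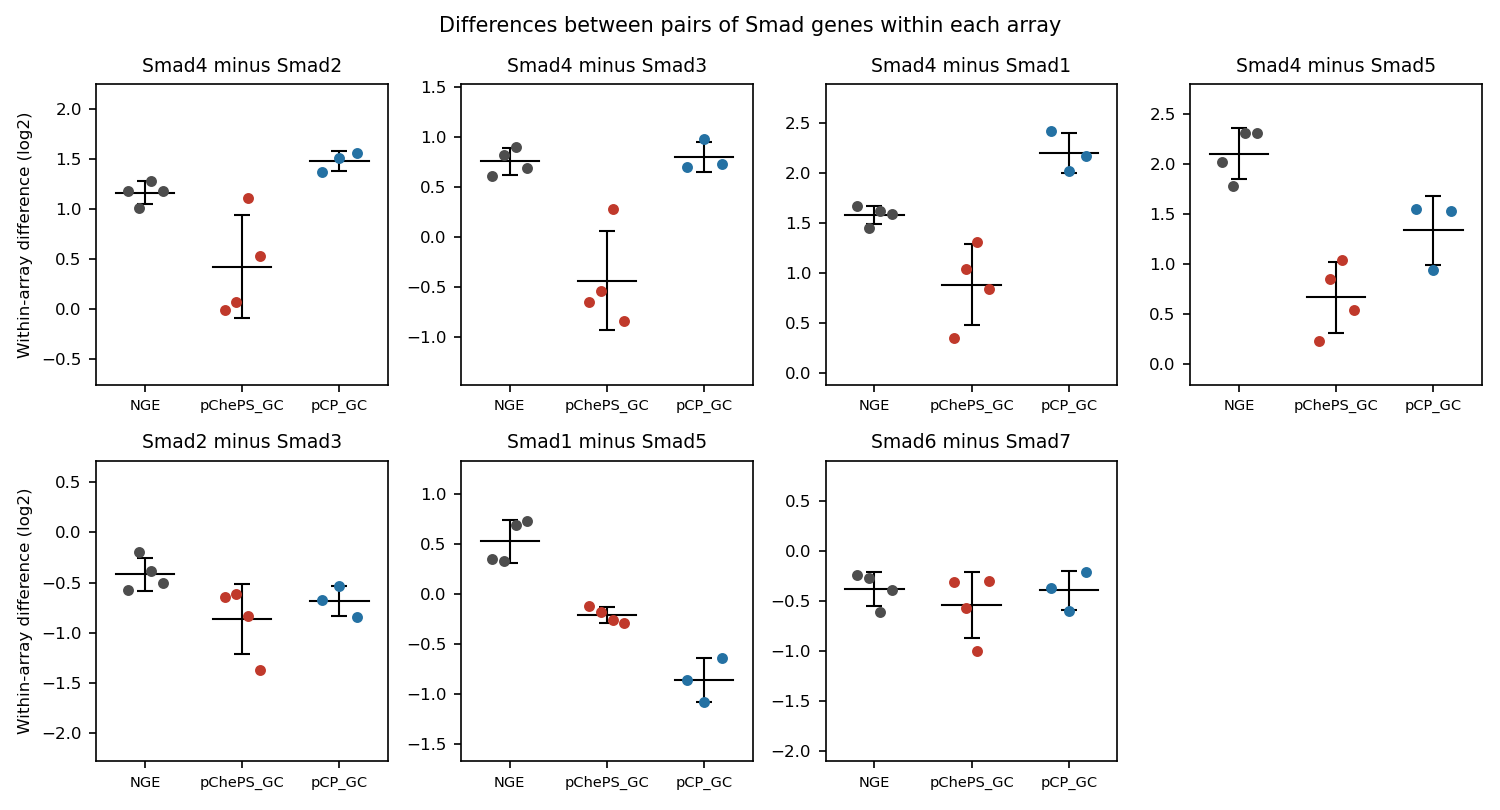
Within-array difference (log2) of pairs of Smad genes on each array, with 1 point per array, black lines for group means and bars for SD. Smad1 minus Smad5 separates the 3 groups, Smad4 minus Smad3 sets pChePS_GC below the others, and Smad6 minus Smad7 overlaps in all groups.

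For each Smad gene the 3 genes with the most similar pattern over the 11 arrays were sought among 6941 genes whose range was at least 1. The 11 arrays share the split between normal and tumour tissue, so a gene that differs between these follows any other that does. Smad9 was most like Kcne2, a potassium channel subunit of parietal cells (Pearson r = 0.99), which read 10.48 to 10.77 in NGE, 6.71 to 6.99 in pChePS_GC and 6.75 to 7.07 in pCP_GC, then Sdr9c7 (r = 0.99) and Trim50 (r = 0.99). Smad6 was most like Slc33a1, an acetyl-CoA transporter (r = 0.99), Cert1, a ceramide carrier (r = 0.98), and Acad11 (r = 0.98). Smad7 was most like Epb41l4a (r = 0.98), Tnfrsf21, a death receptor (r = 0.98), and Cds1 (r = 0.97).

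For Smad4, whose lowest group was pChePS_GC and highest pCP_GC, the most similar gene was Tff2, a peptide of mucous neck cells (r = 0.95), which read 13.84 to 14.00 in NGE, 13.04 to 13.72 in pChePS_GC and 14.02 to 14.10 in pCP_GC. Agt, angiotensinogen (r = 0.90), and Clstn2 (r = 0.88) came next, and all 3 were lower on every pChePS_GC array than on any other. Smad3 was most like Bok, a relative of Bcl2, Cwf19l1 and Eif1ad (r = 0.96 each). Smad5 was most like Iqcb1, Poglut3 (r = 0.98 each) and Zbtb25 (r = 0.97). Smad1 and Smad2 had weaker likenesses, led by Tbc1d24 (r = 0.84) and by Chd1, a chromatin remodeller (r = 0.91).

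Genes that act with the Smad proteins were read from 8 lists, 108 genes in all, since Skil and Pmepa1 stand in 2 lists each. Against NGE 37 rose and 17 fell in pChePS_GC, and 41 rose and 23 fell in pCP_GC. The median difference was 0.11 and 0.12, beside -0.10 and -0.12 over all genes. Without the dimmest 50% of genes the medians over the remaining 9969 were 0.09 and 0.13, near those of the lists. Of these 9969 genes 3004 rose and 1877 fell in pChePS_GC, and 2939 rose and 1672 fell in pCP_GC. Of all genes 42.1% were called in pChePS_GC (18.7% higher and 23.4% lower) and 51.8% in pCP_GC (20% higher and 31.8% lower). The counts of each list below are read beside these shares, and calls near them do not set a list apart. Between the tumour groups 1 gene, Bmp5, was called by limma, against 0.366% of all genes.

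Of 18 ligands 5 rose and 2 fell in pChePS_GC and 8 rose and 5 fell in pCP_GC, with medians of 0.07 and 0.19. Tgfb1, the main TGF-beta, read 8.33 to 8.50 in NGE and rose by 2.33 in pChePS_GC (limma adjusted p = 1.66e-06) and by 2.05 in pCP_GC (adjusted p = 8.52e-06). Tgfb3 rose by 3.51 (adjusted p = 0.000107) and 3.11 (adjusted p = 0.000416) from levels under the dim level on every NGE array, so these rises are lower bounds where that level is background. Inhba, a subunit of activin, rose by 2.73 (adjusted p = 0.000267) and 3.50 (adjusted p = 0.000101).

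Among the BMP ligands, Bmp4 rose by 1.73 in pChePS_GC (limma adjusted p = 0.00172) and by 3.42 in pCP_GC (adjusted p = 3.97e-05), a difference of -1.70 between the tumour groups (adjusted p = 0.0711) that was called without pCP_GC replicate 2 (-1.94 with adjusted p = 0.0466). Bmp5 read 6.95 to 7.62 in NGE, 6.62 to 7.50 in pChePS_GC and 9.04 to 10.36 in pCP_GC. It rose by 2.30 in pCP_GC against NGE (adjusted p = 0.000239), its difference in pChePS_GC was -0.43 (adjusted p = 0.228), and the tumour groups differed by -2.73 (adjusted p = 0.00665). That call was lost with only the 2 tumour groups fitted (-2.73 with adjusted p = 0.155) and with the replicate block (-2.70 with adjusted p = 0.0809). The pChePS_GC levels of Bmp5 lay on both sides of the dim level.

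Of 17 receptors and co-receptors 6 rose and 4 fell in pChePS_GC and 7 rose and 7 fell in pCP_GC, with medians of -0.11 and 0.05. Eng, the endothelial co-receptor endoglin, rose by 3.38 (limma adjusted p = 1.34e-07) and 3.20 (adjusted p = 4.44e-07). Bmpr1b, a BMP receptor, fell by 2.46 (adjusted p = 2.03e-05) and fell by 1.70 (adjusted p = 0.000409). Acvr1c, a receptor for activin and Nodal also called ALK7, fell by 2.15 (adjusted p = 1.4e-06) and fell by 1.84 (adjusted p = 7.96e-06). In pChePS_GC both receptors lay around or under the dim level (6.40 to 7.15 for Bmpr1b and 6.58 to 7.05 for Acvr1c), so where that level is background their falls there are lower bounds.

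Of 13 ubiquitin ligases and deubiquitinases of the pathway 3 rose in pChePS_GC and 5 in pCP_GC, and the rest were not called, with medians of 0.17 and 0.15. The first count was 1 without NGE replicate 3 or pChePS_GC replicate 2, and the second was 1 to 3 without any single array of NGE or pCP_GC. With the arrays centred over named genes the counts were 2 and 1, and under quantile normalization 3 and 2. Otub1, which protects phosphorylated Smad2 and Smad3 from ubiquitin, rose by 0.76 in pChePS_GC (limma adjusted p = 0.00034) and by 0.45 in pCP_GC (adjusted p = 0.00831), the latter not called with the arrays centred over named genes (0.24 with adjusted p = 0.12).

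Of 15 anchors, phosphatases and transport factors 7 rose and 1 fell in each tumour group, with medians of 0.15 and 0.26. The count of 8 called in pChePS_GC was 5 without NGE replicate 1 or 3 or pChePS_GC replicate 2 and 4 without NGE replicate 4, and in pCP_GC it was 5 without NGE replicate 1 or 4. Dab2, an adaptor that links receptors to Smad proteins, rose by 3.47 (limma adjusted p = 3.3e-05) and 3.53 (adjusted p = 5.57e-05) from levels under the dim level in NGE, with the same limit. Xpo4, which exports Smad3 from the nucleus, rose by 0.76 (adjusted p = 0.000701) and 0.97 (adjusted p = 0.000275). Pmepa1, which binds Smad2 and Smad3 and is induced by TGF-beta, rose by 0.94 (adjusted p = 0.000196) and 1.29 (adjusted p = 4.54e-05).

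Of 10 corepressors 3 rose and 2 fell in each tumour group, and the 5 calls in pChePS_GC were 3 without NGE replicate 3 or pChePS_GC replicate 2. Tob1, an antiproliferative protein that binds Smad proteins, fell by 1.34 (limma adjusted p = 2.42e-05) and fell by 1.10 (adjusted p = 0.000178), and Tgif1, which represses Smad2 targets, rose by 1.11 (adjusted p = 8.97e-05) and 0.93 (adjusted p = 0.000495). Of 17 DNA-binding partners and coactivators 5 rose and 3 fell in pChePS_GC and 4 rose and 3 fell in pCP_GC; the 8 calls in pChePS_GC were 5 without NGE replicate 3 or 4 or pChePS_GC replicate 4. Wwtr1, the Hippo effector TAZ, rose by 1.99 (adjusted p = 8.14e-05) and 2.02 (adjusted p = 0.000147). Gata4, a transcription factor of gastric epithelium, fell by 1.26 (adjusted p = 4.87e-06) and fell by 1.11 (adjusted p = 2.27e-05).

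Genes downstream of the Smad proteins are given by branch. Of 11 measured genes that TGF-beta induces, 8 rose in pChePS_GC and 7 in pCP_GC, and the rest were not called, with medians of 0.97 and 1.21. Skil (-0.06 and 0.21), Junb (0.16 and 0.02) and Cdkn2b (-0.24 and -0.28) were called in neither tumour group. Gadd45b was called in pChePS_GC only. The rise therefore did not cover the whole list. Ccn2, a matrix-associated growth factor, rose by 4.18 (limma adjusted p = 1.05e-05) and 4.16 (adjusted p = 2.27e-05), and Tgfbi, a matrix protein, rose by 3.09 (adjusted p = 1.01e-05) and 3.47 (adjusted p = 1.1e-05). Col1a1 and Col1a2, the chains of type I collagen, rose by 3.36 (adjusted p = 8.27e-06) and 3.35 (adjusted p = 1.17e-05) in pChePS_GC and by 3.07 (adjusted p = 3.19e-05) and 3.02 (adjusted p = 4.54e-05) in pCP_GC; both also stand in the fibroblast marker list.

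Of 9 genes that BMP induces, 5 fell and 1 rose in each tumour group, with medians of -0.32 and -0.46. Smad6 and Smad7 fell too, and Smad7 is known to be induced by both branches. Its fall ran beside falls of 5 of the 9 BMP induced genes and rises of most, not all, of the TGF-beta induced genes. Id1, an inhibitor of differentiation factors and a classic BMP target, read 11.38 to 11.69 in NGE, 9.09 to 10.24 in pChePS_GC and 9.71 to 11.11 in pCP_GC. It fell by 1.93 (limma adjusted p = 0.000683) and fell by 1.24 (adjusted p = 0.00957). Id3 fell by 1.82 (adjusted p = 0.000134) and fell by 1.46 (adjusted p = 0.000881), and Id4 fell by 0.92 (adjusted p = 0.000129) and fell by 0.64 (adjusted p = 0.00179). Hey1, a Notch effector that BMP also induces, rose by 0.89 (adjusted p = 0.000123) and 0.72 (adjusted p = 0.000771).

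**Figure D4:**
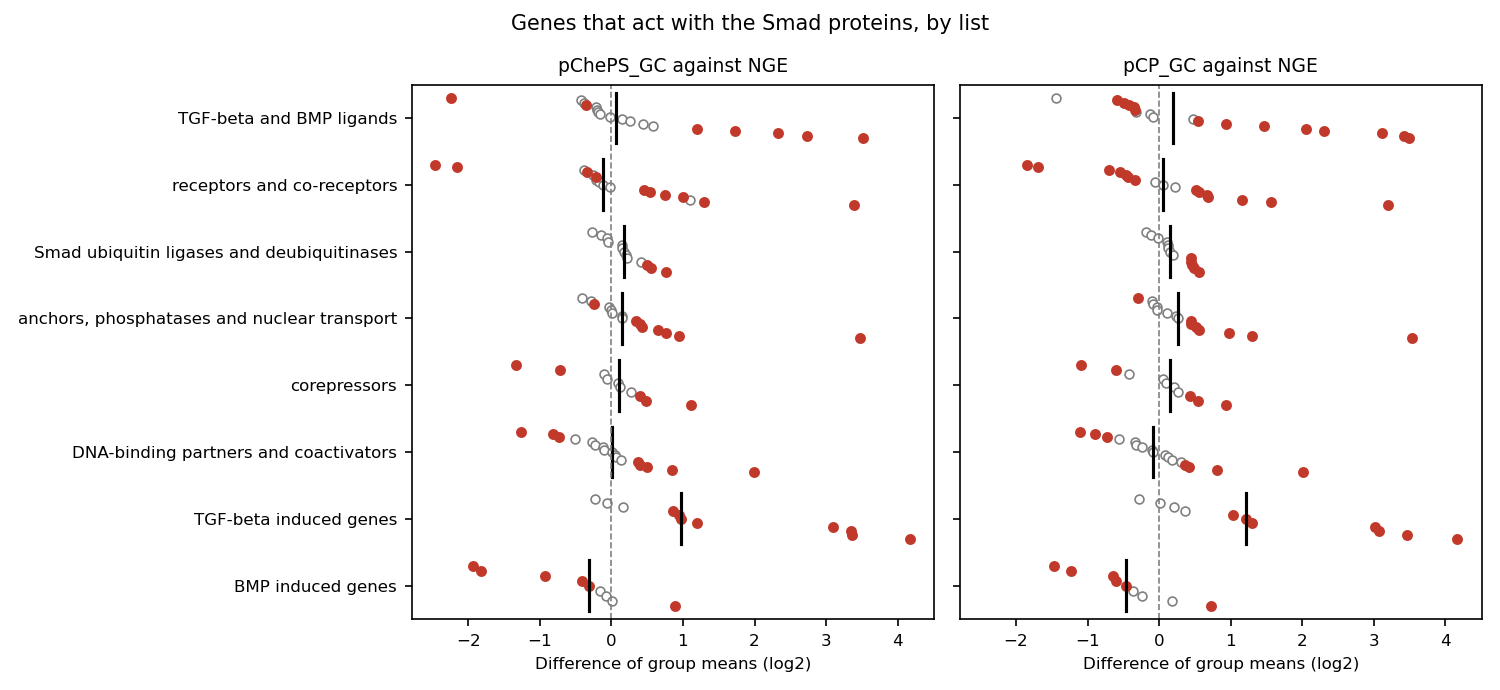
Difference of group means (log2) of each gene in the 8 pathway lists, with 1 point per gene, filled red where limma's adjusted p is under 0.05, and a black bar for the list median. The panels show pChePS_GC and pCP_GC against NGE. The TGF-beta induced genes have medians of 0.97 and 1.21 and the BMP induced genes -0.32 and -0.46.

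Levels of markers of several cell types differed between the groups as well. The mean level of 9 epithelium markers was 12.31 to 12.44 in NGE, 12.27 to 12.53 in pChePS_GC and 12.23 to 12.74 in pCP_GC, but single markers moved both ways. In pChePS_GC 3 of the 9 rose and 2 fell, and in pCP_GC 2 rose and 2 fell, with Cldn7, a claudin of cell junctions, rising by 3.57 and 3.40 and Cdh1 among those that fell. The 7 parietal cell markers averaged 12.11 to 12.43 in NGE, 7.73 to 8.22 in pChePS_GC and 7.56 to 9.35 in pCP_GC, and 6 of 7 fell in either tumour group. Chief cell markers averaged 11.64 to 12.32, 7.63 to 8.93 and 8.17 to 10.39, and 5 and 4 of 5 fell. Surface mucous markers averaged 14.08 to 14.12, 9.52 to 12.67 and 12.44 to 13.17, and 4 and 1 of 5 fell. Kcne2 and Slc26a7, parietal cell markers, lay under the dim level in pChePS_GC. These falls run beside those of Smad6, Smad7, Smad9 and the BMP induced genes, and their part in those results was not tested.

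Markers of other cell types ran beside the rises. Fibroblast markers averaged 7.94 to 8.09 in NGE, 10.89 to 11.87 in pChePS_GC and 10.56 to 12.01 in pCP_GC, and 8 of 8 rose in either tumour group. Endothelium markers averaged 7.19 to 7.36, 9.30 to 10.39 and 9.16 to 9.72 (7 of 8 rose), with Cdh5, Kdr, Emcn and Tek under the dim level in NGE. Smooth muscle and pericyte markers averaged 7.51 to 7.58, 9.38 to 11.93 and 10.77 to 11.64, and macrophage markers 7.31 to 7.57, 10.42 to 11.10 and 10.08 to 11.39, and 7 of 7 rose in both lists. The part of these cells in the levels of Smad3, Smad5, the ligands, Eng, Dab2 and the TGF-beta induced genes was not tested. In bulk tissue, fewer cells of a type and less RNA per cell cannot be told apart.

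**Figure D5:**
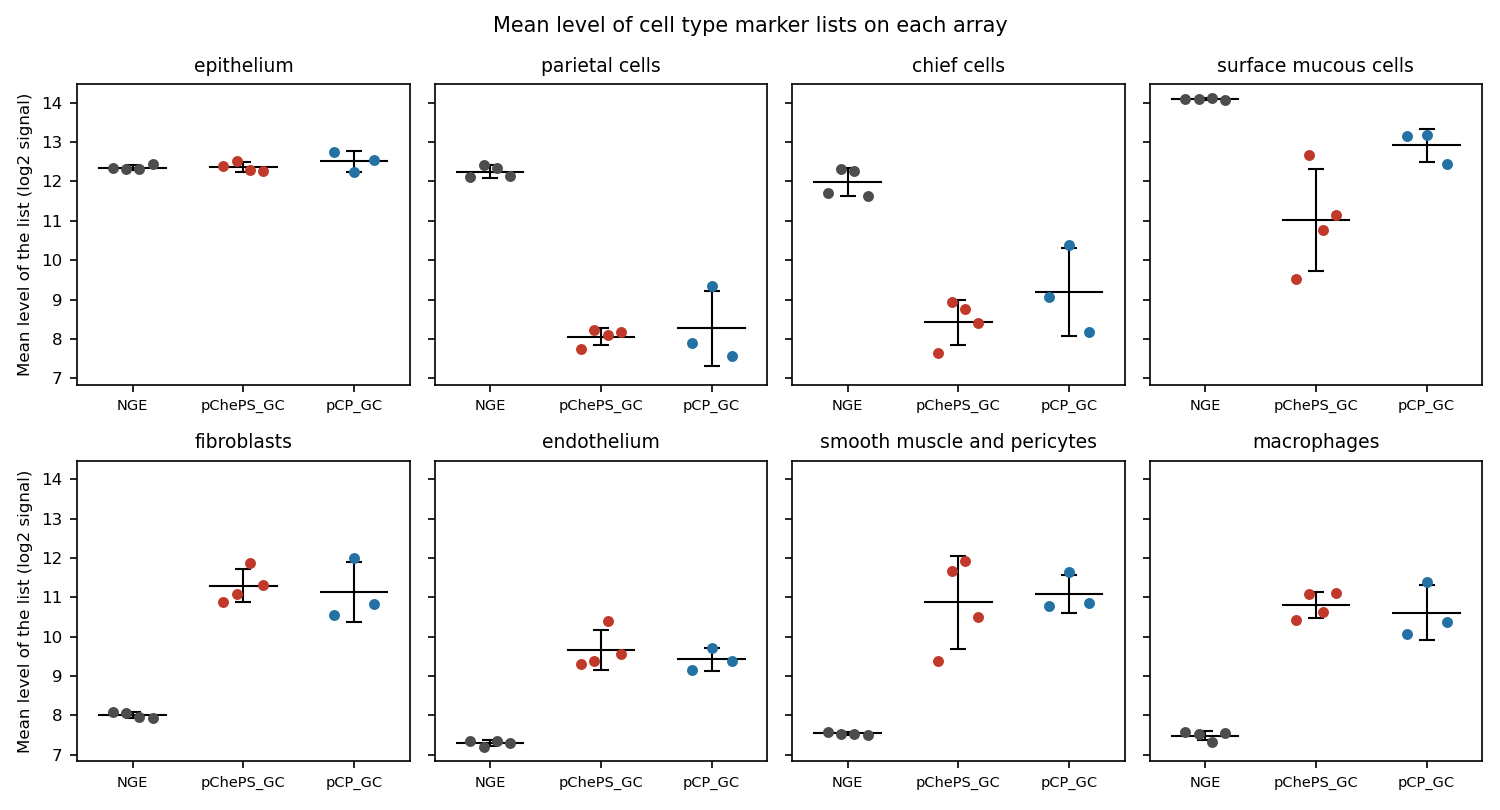
Mean log2 level of each cell type marker list on each array, with 1 point per array, black lines for group means and bars for SD. Parietal, chief and surface mucous markers are lower on every tumour array than on any NGE array, stromal, endothelial and macrophage markers are higher, and epithelium markers overlap.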

How the data were processed

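Per the labels, total RNA of 11 stomach samples (AllPrep kit) was biotin-labelled for Affymetrix arrays. The authors deposited 1 normalized value per probe set and array, on a log2 scale inferred from its range (2.88 to 14.56). The submitters' processing notes name Affymetrix Expression Console; which version and algorithm was used is not stated in the sources used here. Of 35556 probe sets, 21789 name 1 gene symbol, 1621 several and 12146 none; each of 19938 genes took its brightest probe set.

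The limma package (3.58.1, R 4.3.3; lmFit and eBayes) fitted group means over all 11 arrays, with Benjamini-Hochberg adjustment over all genes; the fit was tested on simulated data. Within-array pairs were compared by exact permutation. Members, lists and tests were chosen with earlier results of these data known. Values are given for the TGF-beta induced genes called in neither tumour group. Text values otherwise cover all 8 Smad genes, genes among the 3 most similar to each, and part of the up to 4 called genes per list with the largest difference. Usp11, Smurf1, Uchl5, Ctdsp2, Mecom, Hdac1, Atf3 and Foxo1 also met that rule for the lists, and their values are not printed. All of these but Foxo1 lost a call against NGE under some alternative. Alternatives changed the variance prior, groups fitted, scaling, dim-gene filter, probe set summary, array weights, replicate block, or left out 1 array at a time; centring over named genes was chosen after seeing the data. A few genes of the lists were not analysed here, nor were promoters of Smad2, Smad4 and Smad7.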

Additional observations from a re-analysis of the deposited data

Results flagged for a closer look

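Over 41 genes, 82 groups of 4 arrays were examined for an array that stands apart, and 3 were found. Chance alone flags about 1 group in 20, so 3 of 82 is no excess. Tgfbr3, the co-receptor betaglycan, read 7.56 on NGE replicate 2, below a group median of 7.74. It rose by 1.57 in pCP_GC against NGE (limma adjusted p = 0.0141), a call lost without pCP_GC replicate 2 (1.20 with adjusted p = 0.0652), and its difference in pChePS_GC was 1.10 (adjusted p = 0.0542), which was called without pChePS_GC replicate 1 (1.36 with adjusted p = 0.0274), without pChePS_GC replicate 4 (1.30 with adjusted p = 0.0388) and without pCP_GC replicate 2 (1.10 with adjusted p = 0.0428). Tgif1 read 11.10 on pChePS_GC replicate 4, below a group median of 11.56 and above every NGE array. Col1a2 read 8.71 on NGE replicate 1, above a group median of 8.38 and below every tumour array.

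Bmp5 differed between the tumour groups by -2.73 (limma adjusted p = 0.00665), with 3 of 3 pCP_GC arrays above all 4 pChePS_GC arrays. The difference was not called with only those groups fitted (-2.73 with adjusted p = 0.155) or with the replicate block (-2.70 with adjusted p = 0.0809). In pChePS_GC the levels of Bmp5 (6.62 to 7.50) lay on both sides of the level of dim probe sets.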

How the results depend on the processing

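The 8 Smad genes were refitted under 21 alternatives in each comparison (20 for Smad9, which the filter on the dimmest 50% of genes left out). The genes called against NGE kept their direction and call in all of these, and no called value reversed. With array weights 7 Smad genes were called in pCP_GC against NGE and 1, Smad4, in pChePS_GC against pCP_GC; the count between the tumour groups was 0 to 1 when single arrays were left out, with 1 without pChePS_GC replicate 3. For Smad4, pCP_GC against NGE, the difference was 0.353 with only the 2 groups fitted (limma adjusted p = 0.00716), 0.345 under array weighting (adjusted p = 0.0224), and ran from 0.328 to 0.378 with single arrays left out and from 0.140 to 0.430 over all alternatives, in a range of adjusted p from 0.00716 to 0.492 over the alternatives. For Smad4, pChePS_GC against pCP_GC, it was -0.923 with array weights (adjusted p = 0.0215) and ran from -1.12 to -0.841 with single arrays left out, in a range from 0.00704 to 0.296. With the replicate block 6, 4 and 0 Smad genes were called, and Smad4 differed between the tumour groups by -0.893 (adjusted p = 0.160). Deviations of same-numbered arrays correlated at -0.155 to 0.156, and those of other arrays of different groups at -0.381 to 0.320. Pairing by number was not seen, but these correlations cannot exclude it. Of 504 list counts under an alternative 465 stayed within 1.5 times, 34 were lower and 5 higher. Of 2061 values of 33 list genes, 75 lost a call, 13 gained one and 0 reversed.

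Over all genes the count called in pChePS_GC against NGE was 4881 without the dimmest 50% of genes, where 9969 were tested, beside 8386, and in pCP_GC 4611 beside 10337. Between the tumour groups it was 73, and 0 with only those groups fitted or with the replicate block, 188 with array weights, 31 without the dimmest 50% of genes, 26 to 33 without any single NGE array, 30 and 31 without pCP_GC replicate 1 and 3, and 154 without pCP_GC replicate 2. The cause of these changes was not tested.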

Other observations

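Some genes of the lists were chosen here after their values were seen. Tgfbr1 and Tgfbr2, the receptors through which TGF-beta leads to phosphorylation of Smad2 and Smad3, rose in both tumour groups. Tgfbr2 read 9.89 to 10.37 in NGE, 11.29 to 11.55 in pChePS_GC and 11.08 to 11.72 in pCP_GC, and rose by 1.29 (SE 0.16) and 1.16 (SE 0.17). Tgfbr1 rose by 1.01 (SE 0.16) and 0.66 (SE 0.17). Bmp2, a BMP ligand, read 11.15 to 11.76 in NGE, 7.14 to 10.49 in pChePS_GC and 9.23 to 10.46 in pCP_GC, the opposite direction to Bmp4. It fell by 2.24 in pChePS_GC (SE 0.58, limma adjusted p = 0.0116), and its difference in pCP_GC was -1.44 (SE 0.63, adjusted p = 0.075), although every tumour array lay below every NGE array. Ski and Skil, the corepressors that bind Smad complexes most directly, were not called, with Ski at 0.10 in both tumour groups and Skil at -0.06 and 0.21.

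Proliferation markers averaged 8.97 to 9.29 in NGE, 10.18 to 10.97 in pChePS_GC and 10.65 to 11.24 in pCP_GC, and 5 of 5 rose in either tumour group. Lymphocyte markers averaged 6.91 to 6.99, 6.63 to 8.09 and 6.97 to 7.89, and of 6 measured 1, Cd8a, was called in either tumour group, where it fell by 0.31 and fell by 0.60, with Cd3g, Cd79a and Ms4a1 under the dim level in NGE.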
